A study of Mus musculus with 10 samples.

Results

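Plasma cell differentiation genes were followed by RNA-seq in sorted B cells of the germinal center. They were chosen by gene symbol and comprised 10 of 22380 genes: Prdm1, Irf4, Xbp1, Creb3l2, Ell2, Jchain, Mzb1, Fkbp11, Sdc1 and Tnfrsf17. All 10 had estimated counts and passed the filter on low counts in each comparison.

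The study asked what the transcription factor ZBTB38 does in the germinal center response. B cells that bound the hapten NP and were GL7+ and IgD- were sorted 2 weeks after immunization with NP coupled to ovalbumin in alum. KO mice were Zbtb38fl/fl x Vav-Cre, HET mice carried a single floxed allele with Vav-Cre, and WT mice were Zbtb38fl/fl without Cre. Vav-Cre is active in all blood lineages, so the deletion was not limited to B cells, and WT mice lacked the recombinase besides keeping both alleles intact. The labels give the strain as C57Bl6/N for all mice, but the floxed line went back to a single founder made in a C57Bl6/J zygote and was then backcrossed to C57Bl6/N, and the ages of the mice were not given in the sources used here. There were 2 WT, 2 HET and 6 KO libraries, each named by a replicate number. Totals lay between 26612431 estimated counts in KO replicate 2 and 41059082 in WT replicate 1. The least and most different of the 45 pairs of libraries had a chi-square per degree of freedom of 27.8 and 224 over genes, so no library was counted as a copy of another.

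Plasma cells arise when a B cell shuts down its B cell program and turns its machinery over to antibody secretion. Blimp-1, encoded by Prdm1, and IRF4 drive this switch, while BCL6 and PAX5 hold the germinal center state and repress it. XBP1 then expands the endoplasmic reticulum, ELL2 favors the secreted form of heavy chain mRNA, and the surface proteins CD138 and BCMA mark the cells that result.

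Zbtb38, the targeted gene, was read first as a check of the labels. Its level was 162 and 152 CPM in WT (counts relative to the library total after TMM scaling, the scale of all comparisons between libraries here) and 117 and 106 CPM in HET. In KO it lay between 18.6 and 50.3 CPM with a median of 30.3. Every KO library was below every WT and HET library, and both HET libraries were below both WT libraries. On the TPM scale this order held, but KO replicate 2 with 46.1 TPM was close to the HET libraries at 49.6 TPM each, while the other KO libraries lay between 17.5 and 23.7 TPM and WT at 63.5 and 63.3 TPM. These gene-level values sum all transcripts and include exons outside the floxed last exon, which holds the coding sequence. Compared with WT, KO had a log2 fold change of -2.31 with a standard error (SE) of 0.274 (edgeR adjusted p = 0.0734), and that of KO against WT plus HET was -2.08 (SE 0.232, edgeR adjusted p = 0.0104). For KO against HET it was -1.82 (SE 0.261, edgeR adjusted p = 0.128). With HET against WT it was -0.49 (SE 0.345, edgeR adjusted p = 0.873).

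The germinal center label was read against 12 genes of such B cells, and all 12 were above 1 TPM in every library (transcript abundance corrected for length, the scale of all comparisons between genes here). Cd79b, part of the B cell receptor, was the most abundant of them at a mean of 2372 TPM. KO replicate 6 stood apart in the plasma cell genes: 5 of the 10 reached their highest CPM in it. Over all genes its chi-square per degree of freedom against the other libraries lay between 136.9 and 224.1. It also had the fewest genes above 0, 13886. KO replicate 1 was far from most libraries as well, at 63.3 against KO replicate 3 and between 112.8 and 164.6 against the others. KO replicate 1 held the highest CPM of Jchain and Mzb1 and the lowest of Irf4. HET replicate 2 held the lowest CPM of 5 of the 10. Results that rest on KO replicate 6 are given with and without it.

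The 10 genes covered a wide range of levels. Jchain led with a mean of 1230 TPM over the 10 libraries (SD 141), followed by Mzb1 with 989 TPM (SD 76.8). Their means were at the 99.6th and 99.4th percentile of all genes, and KO replicate 6 had Jchain at 1083 TPM and Mzb1 at 995 TPM. Xbp1 had a mean of 224 TPM (SD 52.0) and Ell2 one of 51.5 TPM (SD 11.9). The means of these 4 genes differed from one another by more than the SD of either neighbor. The other 6 were low, with ranges that overlapped between neighbors in the order, and in KO replicate 6 Fkbp11 with 47.2 TPM reached the level of Ell2 with 44.4 TPM. Mean levels were 14.7 TPM for Fkbp11 (SD 14.3), 10.9 TPM for Irf4 (SD 3.91) and 6.11 TPM for Sdc1 (SD 4.08). Below them came Prdm1 at 4.27 TPM (SD 2.22), Tnfrsf17 at 2.92 TPM (SD 3.98) and Creb3l2 at 1.44 TPM (SD 1.06). Irf4 and Sdc1 also differed in their means by more than the SD of either, and the other neighbors in this lower part of the order did not.

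The transcription factors of the switch differed in how much they varied. Prdm1 (ENSMUSG00000038151.13, chr10:44437177-44528501, minus strand, GRCm38) encodes Blimp-1, the repressor that silences the B cell program. Prdm1 was at 12.5 and 13.9 CPM in WT, at 12.05 and 2.39 CPM in HET, and between 4.96 and 31.4 CPM in KO with a median of 12.4. HET replicate 2 and KO replicate 3 were low, KO replicates 5 and 6 were high, and the KO group spanned WT on both sides while HET replicate 1 lay just below WT. Bulk libraries cannot tell fewer cells with a plasma cell program from less of its RNA in each cell, for this gene or any other here. KO differed from WT plus HET by a log2 fold change of 0.67 (SE 0.524, edgeR adjusted p = 0.774). This was 0.37 without KO replicate 6 and 0.345 without HET replicate 2. Against WT alone it was 0.30 (SE 0.558), and 0.01 without KO replicate 6.

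Irf4 (ENSMUSG00000021356.10, chr13:30749226-30766976, plus strand) encodes the factor whose high level favors the plasma cell fate. Its levels were 41.9 and 47.7 CPM in WT, 30.59 and 30.65 CPM in HET, and between 16.5 and 55.6 CPM in KO with a median of 34.7. KO replicate 1 was the lowest of all libraries and KO replicate 4 the highest, so the KO group spanned both others. KO against WT plus HET differed by a log2 fold change of -0.12 (SE 0.274, edgeR adjusted p = 0.937).

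Xbp1 (ENSMUSG00000020484.18, chr11:5520659-5525893, plus strand) encodes the factor of the unfolded protein response that enlarges the secretory apparatus. The counts are per gene and do not separate the mRNA spliced by IRE1 from the unspliced one. Xbp1 was at 345 and 283 CPM in WT, at 259 and 220 CPM in HET, and between 224 and 465 CPM in KO with a median of 334. The HET libraries lay below both WT libraries, and KO replicate 2 lay at the HET level while KO replicate 6 was the highest. For Xbp1 the log2 fold change of KO against WT plus HET was 0.27 (SE 0.188, edgeR adjusted p = 0.754), and 0.15 without KO replicate 6.

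Creb3l2 (ENSMUSG00000038648.5, chr6:37327255-37442146, minus strand) encodes a membrane-bound factor released under secretory load. It had 18.8 and 9.92 CPM in WT, 3.57 and 1.59 CPM in HET, and between 1.5 and 10.8 CPM in KO with a median of 7.27. WT replicate 1 was the highest library, and the HET libraries and KO replicate 3 were the lowest. The log2 fold change was -1.08 for KO against WT (SE 0.583, edgeR adjusted p = 0.999), which was -0.55 without WT replicate 1, and -2.47 for HET against WT (SE 0.806, edgeR adjusted p = 0.709). When only the WT and HET libraries were fitted, the latter was -2.48 with an edgeR adjusted p of 0.0727, and over all alternatives its adjusted p ranged from 0.0727 to 1.0.

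Ell2 (ENSMUSG00000001542.7, chr13:75706757-75772364, plus strand) encodes the elongation factor that acts on heavy chain mRNA processing. Its levels were 102 and 84.5 CPM in WT, 103 and 96.7 CPM in HET, and between 71.7 and 101 CPM in KO with a median of 85.5. In CPM all 3 genotypes overlapped, and this was the only member whose mean was highest in HET. KO differed from WT plus HET by a log2 fold change of -0.16 (SE 0.123, edgeR adjusted p = 0.774). Other settings gave larger values: -0.31 with length-scaled counts and -0.42 with limma on log2(TPM + 1), where the median over all genes was -0.08. In TPM KO replicates 1, 2, 3 and 6, between 35.4 and 44.4 TPM, lay below every WT and HET library, of which the lowest had 49.2 TPM.

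**Figure D1:**
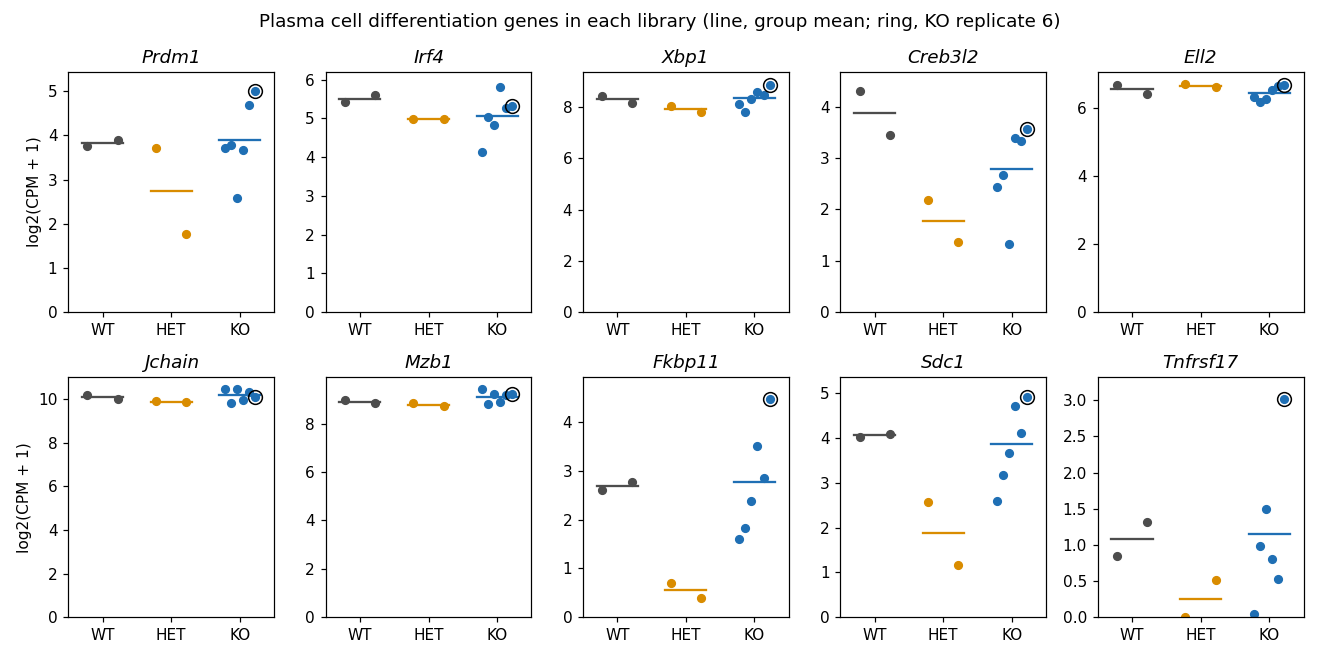
Level of the 10 plasma cell differentiation genes in each library, as log2(CPM + 1) on the vertical axis, by genotype on the horizontal axis. Points are libraries, lines are group means and a ring marks KO replicate 6, which was the highest library for 5 genes, among them Fkbp11 at 21.2 CPM and Tnfrsf17 at 7.06 CPM.

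Among the genes of antibody assembly, the abundant ones were steady. Jchain (ENSMUSG00000067149.6, chr5:88519809-88527891, minus strand) encodes the chain that joins IgM and IgA into polymers. Jchain was at 1167 and 1017 CPM in WT, at 963 and 924 CPM in HET, and between 886 and 1392 CPM in KO with a median of 1185. Its highest KO library was 1.57 times the lowest, and the KO group spanned both others. For Jchain the log2 fold change of KO against WT plus HET was 0.20 (SE 0.140, edgeR adjusted p = 0.754).

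Mzb1 (ENSMUSG00000024353.4, chr18:35647267-35649367, minus strand) encodes a chaperone of the endoplasmic reticulum that helps IgM assembly and secretion. It had 500.3 and 454 CPM in WT, 457 and 420 CPM in HET, and between 441 and 678 CPM in KO with a median of 583. Both KO replicates 2 and 4 lay within the range of WT and HET, and the other 4 KO libraries lay above it. The log2 fold change of KO against WT plus HET was 0.29 (SE 0.124, unadjusted p = 0.0389, edgeR adjusted p = 0.744). Without KO replicate 6 it was 0.26 (unadjusted p = 0.0630 by edgeR), and the unadjusted p was also above 0.05 without KO replicate 1, 3 or 5, without either HET library, without WT replicate 2, or with a block for the replicate number.

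Fkbp11 (ENSMUSG00000003355.7, chr15:98724366-98728198, minus strand) encodes a peptidyl-prolyl isomerase of the secretory pathway. It was at 5.07 and 5.81 CPM in WT, at 0.637 and 0.326 CPM in HET, and between 2.04 and 21.2 CPM in KO with a median of 5.22. The HET levels rested on 20 and 9 estimated counts, while the other libraries had between 56 and 706. Both HET libraries were below all WT and KO libraries, and the KO group spanned WT on both sides with KO replicate 6 on top. The log2 fold change was 3.99 for KO against HET (SE 1.01, unadjusted p = 0.00208, edgeR adjusted p = 0.305) and -3.48 for HET against WT (SE 1.06, unadjusted p = 0.00679, edgeR adjusted p = 0.709). Without KO replicate 6 they were 3.39 and -3.49. DESeq2 gave adjusted p-values of 0.000428 and 0.0586 for these comparisons, and the adjusted p over all alternatives ranged from 0.000428 to 0.921 for KO against HET and from 0.0584 to 1.0 for HET against WT. Both comparisons share the HET libraries. Against WT alone KO had a log2 fold change of 0.51 (SE 0.806), which was -0.10 without KO replicate 6.

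The genes of plasma cell surface proteins also had their lowest mean CPM in HET, but for Tnfrsf17 some KO libraries were at the HET level. Sdc1 (ENSMUSG00000020592.14, chr12:8771323-8793715, plus strand) encodes syndecan-1, or CD138, the usual marker of plasma cells in sorting. Sdc1 was at 15.1 and 16.0 CPM in WT, at 4.97 and 1.23 CPM in HET, and between 5.03 and 29.0 CPM in KO with a median of 13.9. The lowest KO library, replicate 1, was just above the higher HET library, KO replicates 4 and 6 were well above WT, and KO replicate 5 was barely above it. Its log2 fold change was 2.35 for KO against HET (SE 0.733, unadjusted p = 0.00787, edgeR adjusted p = 0.370) and -2.32 for HET against WT (SE 0.809, unadjusted p = 0.0145, edgeR adjusted p = 0.709). Without HET replicate 1 these were 3.68 and -3.66, and without HET replicate 2 they were 1.67 and -1.65. For KO against HET the DESeq2 adjusted p was 0.0177, and the adjusted p over all alternatives ranged from 0.0177 to 0.921. KO against WT differed by 0.03 on the log2 scale (SE 0.562), and by -0.23 without KO replicate 6.

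Tnfrsf17 (ENSMUSG00000022496.5, chr16:11313812-11320074, plus strand) encodes BCMA, the receptor that long-lived plasma cells use to survive. It had 33 and 43 estimated counts in WT, 0 and 12 in HET, and between 1 and 235 in KO with a median of 25.5. The 0 in HET replicate 1 allows up to 3 counts, or 0.0932 CPM before scaling, counting error only. KO replicate 6 alone held the value of 235, the next KO library had 56, and KO replicates 1 and 5 with 1 and 13 counts were at the HET level. The log2 fold change of KO against WT plus HET was 1.45 (SE 1.22, edgeR adjusted p = 0.791), and 0.24 without KO replicate 6.

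Read together, none of the 10 genes passed an adjusted p of 0.1 in the main edgeR fit of any of the 4 comparisons. Of all genes tested, 0.00704% did so in KO against WT, 0.00749% in KO against WT plus HET, 0.00697% in KO against HET and 0.00697% in HET against WT, which is 1 gene in each. Of the 10, 0 had an unadjusted p under 0.05 in this fit in KO against WT, where 2.19% of 14203 genes did. That count was 1 without KO replicate 6, Creb3l2, where 453 of 14075 genes were under 0.05, and 4 with a block for the replicate number, Irf4, Sdc1, Creb3l2 and Fkbp11, all lower in KO, where 1090 of 14203 genes were. It was 1 of 10 in KO against WT plus HET, Mzb1, where 6.3% of 13347 genes did. In KO against HET 2 of 10, Fkbp11 and Sdc1, stood against 10.2% of 14354 genes, and in HET against WT 3 of 10, Creb3l2, Fkbp11 and Sdc1, against 6.42%. At the adjusted threshold DESeq2 called 0, 0, 2 and 1 of the 10 in the same order of comparisons, and limma on log2(TPM + 1) called 0 in each. The DESeq2 calls stood against 458 genes in KO against HET and 125 genes in HET against WT, of 14354.

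The median log2 fold change of the 10 was 0.09 in KO against WT, beside 0.01 over all genes tested, with 7 higher and 3 lower in KO. Of these 7, Xbp1, Sdc1, Tnfrsf17 and Fkbp11 were lower in KO without KO replicate 6. With the block for the replicate number Prdm1 was lower in KO as well. With limma on log2(TPM + 1) 6 of these 7, Prdm1, Xbp1, Sdc1, Jchain, Tnfrsf17 and Fkbp11, had the opposite sign, and the median over all genes was itself -0.11 there, with 5 of these 6 above it. The mean TPM of Prdm1, Tnfrsf17 and Fkbp11 was still higher in KO than in WT. The median was 0.28 in KO against WT plus HET, beside 0.02 over all genes, again with 7 higher and 3 lower. Here Xbp1, Sdc1, Tnfrsf17 and Fkbp11 were lower in KO with the block. For KO against HET the median was 0.82, beside 0.07, with 9 higher and 1 lower. Between HET and WT it was -0.71, beside -0.01, with 1 higher and 9 lower in HET. The first 3 comparisons share the KO libraries and the last 3 the HET libraries, and WT is a group in all but KO against HET. All are given side by side. Without KO replicate 6 the medians were -0.13, 0.23, 0.62 and -0.72 in the same order, so that of KO against WT changed its sign. With limma on log2(TPM + 1) they were -0.09, 0.14, 0.45 and -0.79, and with the block for the replicate number -0.65, -0.36, 0.66 and -0.81. A pseudocount of 0.1 in place of 1 gave -0.21, 0.14, 0.69 and -1.05 with limma. The median over all genes was then -0.16 in KO against WT. With at least 10 counts in every library, which left 8 members in the last 2 comparisons, these were 0.43 and -0.50. The medians that involve HET also moved with each HET library: without HET replicate 1 they were 1.34 in KO against HET and -0.96 in HET against WT, and without HET replicate 2 they were 0.40 and -0.41.

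Separation of the groups was counted in CPM. No member in KO against WT had all KO libraries above both WT libraries, as 2.68% of genes had, or all below, as 3.91% had. For KO against WT plus HET the count was also 0 in either direction, against 0.524% of genes above and 0.989% below. In KO against HET 2 members, Fkbp11 and Sdc1, had every KO library above both HET libraries, against 5.77% of genes, and 0 had every KO library below, against 8.12%. For Sdc1 the margin was 5.03 against 4.97 CPM, and in TPM it was lost, with KO replicate 1 at 2.24 and HET replicate 1 at 2.33 TPM. Both HET libraries were below both WT libraries for 8 of 10 members, against 24.5% of genes, and above for 0, against 23.5%. Mzb1 and Ell2 were the members in which HET and WT overlapped.

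The same HET libraries were also low in markers of other cells. The T cell list of 12 genes summed to 521 and 593 TPM in WT, 242 and 270 TPM in HET, and between 300 and 448 TPM in KO. Its most abundant gene was Cd2 with a mean of 139 TPM, 36.1% of the sum, and none of the 12 was at 0 in any library. Lck, with a mean of 113 TPM, differed little between genotypes, at means of 120 TPM in WT, 121 TPM in HET and 109 TPM in KO. The sum therefore rested largely on Cd2 and Lck, and less on the T cell receptor genes. The HET mean was the lowest of the 3 for 11 of the 12. In HET against WT 9 of the 12 were lower at an unadjusted p under 0.05 by edgeR, where 572 of 14354 genes were. Of the 12, 0 were higher at that level and 0 passed the adjusted threshold. KO was also below WT for 11 of the 12. Cd3e, Cd3g, Trac, Trbc1 and Trbc2 were lower in KO against WT at an unadjusted p under 0.05 by edgeR, where 169 of 14203 genes were. Every KO library was below both WT libraries for 5 of the 12, against 3.91% of genes, and 0 passed the adjusted threshold. Trbc2, the constant part of the T cell receptor beta chain, had means of 81.5 TPM in WT, 11.1 TPM in HET and 40.4 TPM in KO.

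The myeloid list of 10 genes summed to 711 and 579 TPM in WT and to 99.7 and 104 TPM in HET. In KO its sum was 113 and 95.1 TPM in replicates 1 and 2, 316, 999 and 306 TPM in replicates 3, 4 and 5, and 266 TPM in replicate 6. Lyz2, the lysozyme of macrophages and neutrophils, was the most abundant with a mean of 197 TPM, and Fcgr1 was at 0 in 2 libraries. KO replicates 1 and 2, which were at the HET level here, also had the lowest Fkbp11 and Sdc1 of the KO group, while KO replicate 6, highest for both genes, had a myeloid sum above only that of replicates 1 and 2 in its group. All 10 were lower in HET than in WT, where 7329 of 14354 genes were. Of the 10, 8 had an unadjusted p under 0.05 in edgeR, where 572 of all genes were lower at that level, and 0 passed the adjusted threshold.

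The naive B cell list of 10 genes summed to 901 and 1006 TPM in WT, 567 and 585 TPM in HET, and between 495 and 1127 TPM in KO. Fcer2a, the low-affinity IgE receptor CD23, led it with a mean of 203 TPM, none of the 10 was at 0 in any library, and Ighd, whose protein the sort had selected against, was present at means of 148, 43.1 and 95.7 TPM in WT, HET and KO. The 6 erythroid genes, of which the 2 alpha globin genes are near-identical copies with uncertain shares of reads, summed to 133 and 187 TPM in WT, 114 and 104 TPM in HET, and between 176 and 257 TPM in KO. Hbb-bt was the most abundant of these with a mean of 118 TPM, and Alas2 was at 0 in 2 libraries. In contrast, the 12 germinal center B cell genes summed to 8076 and 8867 TPM in WT, 8119 and 8235 TPM in HET, and between 6987 and 8765 TPM in KO. The part of other cell types in the plasma cell gene levels was not tested.

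**Figure D2:**
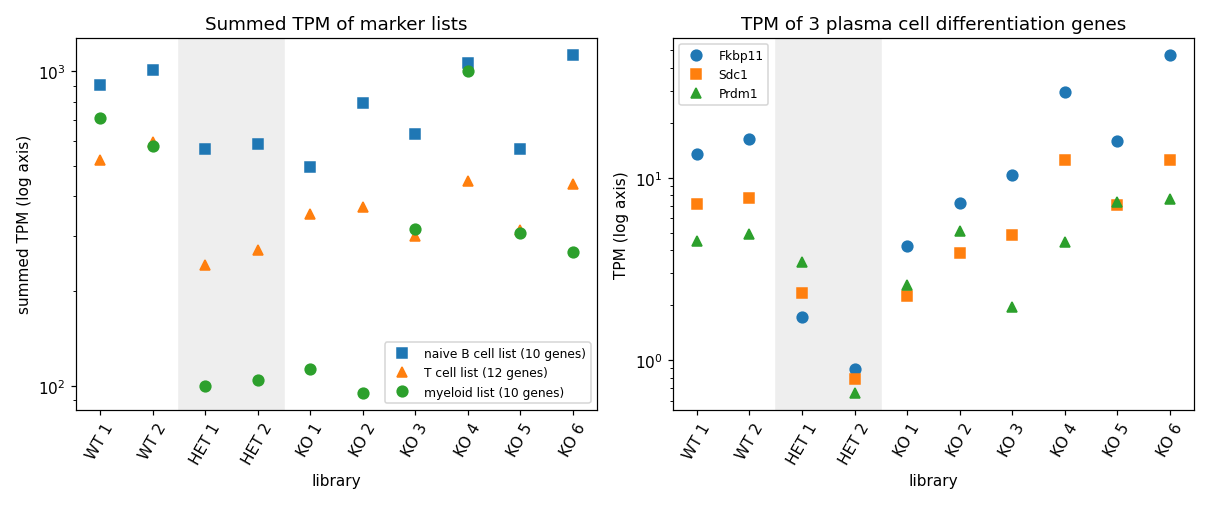
Summed TPM of the naive B cell, T cell and myeloid marker lists (left) and TPM of Fkbp11, Sdc1 and Prdm1 (right) in each library, on log axes, with the HET libraries shaded. The HET libraries held 242 and 270 TPM of the T cell list, below every WT and KO library, and 1.72 and 0.891 TPM of Fkbp11.

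Genes that hold the B cell state were measured as the counterpart. Of the 12, 11 passed the filter in KO against WT plus HET, and 4 were higher and 7 lower in KO. In edgeR 0 passed the adjusted threshold and, beside 6.3% of 13347 genes, 1 had an unadjusted p under 0.05. This was Ets1, a factor that restrains plasma cell formation, at 513 CPM in KO (SD 51.2) and 643 CPM in WT plus HET (SD 114), a log2 fold change of -0.32 (SE 0.124, edgeR adjusted p = 0.744). Against WT alone it was -0.09 and against HET alone -0.53. In HET against WT 10 of the 12 were higher and 2 lower in HET, where 6992 of 14354 genes were higher, and both HET libraries were above both WT libraries for 7 of the 12, against 23.5% of genes. The most abundant were Spib and Irf8, both B cell transcription factors, with means of 455 and 397 TPM. Their log2 fold changes in KO against WT plus HET were -0.23 for Spib and -0.08 for Irf8.

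A second list held 19 other genes of plasma cells. Of these, 13 were higher and 6 lower in KO against WT plus HET, where 7051 of 13347 genes were higher. In edgeR 0 passed the adjusted threshold and 3 had an unadjusted p under 0.05, against 6.3% of all genes tested. Sec11c, a subunit of the signal peptidase, was at 213 CPM in KO (SD 42.1) and 153 CPM in WT plus HET (SD 24.3), a log2 fold change of 0.48 (SE 0.154, edgeR adjusted p = 0.744). Against WT alone that of Sec11c was 0.30 and against HET alone 0.69. Slpi, a secreted protease inhibitor, had a log2 fold change of 0.40 (SE 0.179, edgeR adjusted p = 0.744), with 0.32 against WT alone and 0.48 against HET alone. For Trp53inp1 it was -0.48 (SE 0.166, edgeR adjusted p = 0.744), with -0.10 against WT alone and -0.78 against HET alone. The most abundant were Pou2af1, the B cell coactivator OBF-1, with a mean of 934 TPM, then Sec11c with 437 TPM and Slpi with 398 TPM. Pou2af1 differed by -0.19 on the log2 scale (SE 0.143), with 0.09 against WT alone and -0.42 against HET alone. In HET against WT, 2 of the 19 were higher and 3 lower at an unadjusted p under 0.05, where 350 and 572 of 14354 genes were. In KO against WT 0 of the 19 were, against 2.19% of 14203 genes.

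The secretory machinery, on which XBP1 acts, was followed by 30 genes. Higher in KO than in WT plus HET were 24, beside the same 7051 of 13347 genes, and lower were 6. Of the 30, 0 passed the adjusted threshold, and 3 were higher and 0 lower at an unadjusted p under 0.05 in edgeR. Over all 13347 genes 301 were higher and 540 lower at that level. Against WT alone 20 of the 30 were higher and 10 lower in KO, where 7354 of 14203 genes were higher. None of the 30 had an unadjusted p under 0.05 by edgeR there. In HET against WT 9 were higher and 21 lower, and 13 had both HET libraries below both WT libraries, against 24.5% of genes. Ssr2, a subunit of the translocon-associated complex, had a log2 fold change of 0.42 (SE 0.172) in KO against WT plus HET. Sdf2l1, a chaperone cofactor, had one of 0.37 (SE 0.154), and Sec61g, a subunit of the translocon itself, one of 0.40 (SE 0.181). The edgeR adjusted p was 0.744 for each. Against WT alone they were 0.26 for Ssr2, 0.37 for Sdf2l1 and 0.32 for Sec61g. Against HET alone they were 0.59, 0.38 and 0.48. The most abundant were Sec61b with a mean of 445 TPM, Hspa5 with 394 TPM and Hsp90b1 with 363 TPM, subunit and chaperones of the same compartment. Their log2 fold changes in KO against WT plus HET were 0.37, 0.14 and 0.21. That of Hsp90b1 was -0.12 against WT alone and 0.62 against HET alone. The summed level of the 30 genes was 5181 and 4676 TPM in WT, 4355 and 4285 TPM in HET, and between 4127 and 5467 TPM in KO, where replicates 4, 5 and 6 were above both WT libraries and replicates 1 and 2 below both HET libraries.

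Secreted and membrane-bound antibody come from the same heavy chain gene by a choice of 3' end, and plasma cells favor the secreted end. The annotation holds both forms of Ighm, which differ after 1305 shared coding bases. Their ends are shown because the split of reads between them is what the share below measures. In each sequence 30 shared bases stand in lower case and the coding bases of that form alone in capitals. The secreted end has 59 such bases (chr12:113420870-113420928, minus strand, GRCm38, within the last exon). The membrane end has 122 in 2 exons (chr12:113418829-113419068, minus strand).
Secreted Ighm: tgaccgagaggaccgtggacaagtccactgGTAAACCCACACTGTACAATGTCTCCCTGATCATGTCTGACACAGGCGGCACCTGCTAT
Membrane Ighm: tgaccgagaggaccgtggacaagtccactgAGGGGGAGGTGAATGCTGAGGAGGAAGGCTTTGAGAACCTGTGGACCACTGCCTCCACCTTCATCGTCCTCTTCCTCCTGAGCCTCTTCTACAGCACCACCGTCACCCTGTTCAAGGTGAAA

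The secreted form took 50.9% and 39.4% of the Ighm estimated counts in WT, 25.3% and 20.01% in HET, and between 27.2% and 51.6% in KO. Both HET libraries were below all others, KO replicates 1 and 2 were just above them at 27.2% and 28.8%, and KO replicates 3 to 6 lay between 42.5% and 51.6%, near the WT level. Over Ighm and the 4 Ighg genes together the share was 37.0% in WT (SD 3.24), 16.0% in HET (SD 1.97) and 35.2% in KO (SD 10.4). KO exceeded WT plus HET by 8.68 percentage points, less than the SD between the KO libraries. The Ighg1 share was 17.7% in WT (SD 1.94), 9.42% in HET (SD 1.27) and 18.4% in KO (SD 4.90). For Ighg2b the means were 31.2%, 11.7% and 25.6%, and for Ighg2c 61.6%, 38.5% and 58.1%. The Ighg3 means were 30.4%, 17.5% and 24.9%, so HET had the lowest mean for each of these 5 genes. A part of the Ell2 level in these shares was not tested. For Igha, with between 1098 and 8704 estimated counts a library, the share was 29.5% and 40.9% in WT, 7.68% and 51.0% in HET, and between 24.3% and 63.1% in KO, so a HET library lay on either side of WT. The shares are estimates of how reads common to both forms were divided, and no test was run on them. In TPM these shares were higher, with Ighg1 means of 36.3%, 21.8% and 37.2% in WT, HET and KO. HET again had the lowest mean for Ighm and each of the 4 Ighg genes.

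**Figure D3:**
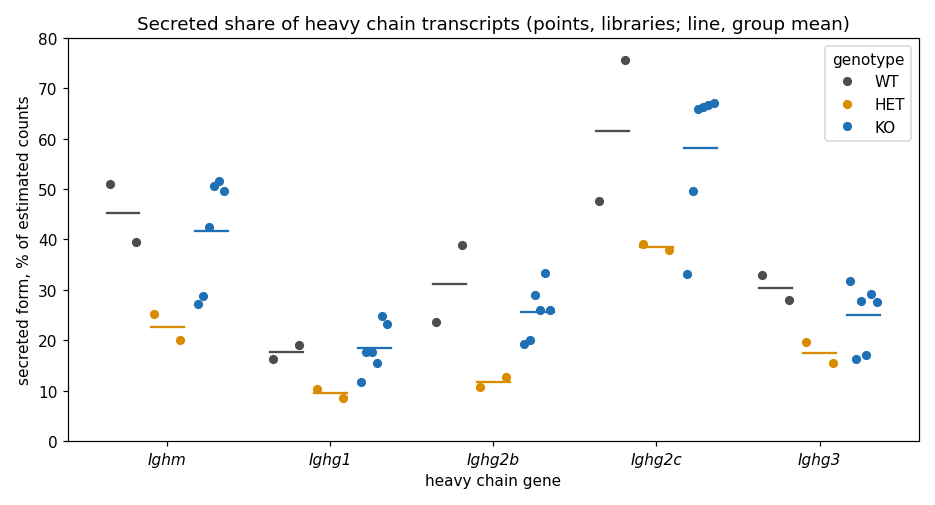
Share of the secreted form, in percent of estimated counts on the vertical axis, for 5 heavy chain genes on the horizontal axis. Points are libraries and lines are group means by genotype, and for Ighm the HET libraries lay at 25.3% and 20.01%, below the lowest KO library at 27.2%.

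Genes with the pattern most like the members were found by the Pearson correlation of log2(CPM + 1) with the mean z-score of the 10, over 10 libraries and as a description. The mean z-score was 0.45 and 0.13 in WT, -0.52 and -1.10 in HET, and ran from -0.60 in KO replicate 2 to 1.16 in KO replicate 6. Of the 8 closest genes Acp2, a lysosomal phosphatase, was first with r = 0.992, and again first with r = 0.992 without KO replicate 6. Acp2 went from 5.28 CPM in HET replicate 2 to 24.4 CPM in KO replicate 6. Next were Plbd1 (r = 0.969), Creld2 (r = 0.968), a chaperone of the endoplasmic reticulum that is also in the secretory list, Anxa5 (r = 0.961) and App (r = 0.960). Tmem154 (r = 0.959), H2-K1 (r = 0.957), a class I histocompatibility gene, and Vimp (r = 0.954) completed the 8. KO replicate 6 was the highest library for each of the 8. Without it Acp2, Tmem154, Plbd1 and Anxa5 were still among the closest 8.

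The 1 gene past the threshold in KO against HET and in HET against WT was Hnrnpll, named here after its values were seen. It encodes a splicing factor. Hnrnpll was at 4.85 and 5.15 CPM in WT, at 0 in both HET libraries, which allows up to 0.0932 and 0.106 CPM before scaling, and between 1.82 and 4.99 CPM in KO. Its edgeR adjusted p was 0.0496 for KO against HET and 0.0395 for HET against WT. No fold change is given, since the fitted value depends on the prior count where a whole group is at 0. The source of the values at 0 was not tested and cannot be read from these libraries.

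Promoters were read because 4 of the members, Prdm1, Irf4, Xbp1 and Creb3l2, encode factors that bind DNA, and several members were low together in HET. RefSeq windows of 250 bases before the start (GRCm38.p6) matched 9 of the 10 genes, all but Mzb1, with 10 windows among them. These starts can differ from the Gencode ends given above, and for Prdm1, Ell2 and Fkbp11 the matches lay within the Gencode gene. Letters searched on both strands were TGACGT and CCACG, cores of sites bound by factors of the unfolded protein response, and GAAA followed after any 2 bases by GAAA, the form of a site for interferon regulatory factors. They stood in 6.47%, 28.3% and 2.98% of the 32851 windows of all genes. Ell2 held TGACGT at 3 positions, of which a pair overlaps as both strands of TGACGTCA, and Creb3l2 held it once. Single matches to CCACG were in Irf4, Sdc1 and Fkbp11 and 2 were in Prdm1, while Tnfrsf17 held the 1 match to the doubled GAAA. In the windows of Xbp1 and Jchain none of the 3 was found. Stretches around a match are shown for Fkbp11 and Sdc1, the members separated between KO and HET in CPM, and for Creb3l2 and Ell2, with the match in capitals and 15 bases on either side. A match is a description of letters, not a bound site.
Fkbp11, chr15:98727640-98727674, minus strand: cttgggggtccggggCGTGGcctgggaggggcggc
Sdc1, chr12:8771213-8771247, plus strand: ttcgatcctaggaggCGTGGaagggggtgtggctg
Creb3l2, chr6:37442324-37442359, minus strand: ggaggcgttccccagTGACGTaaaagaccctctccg
Ell2, chr13:75707271-75707306, plus strand: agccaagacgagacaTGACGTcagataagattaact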

How the data were processed

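The authors sorted the cells, made cDNA by SMART-Seq v4, sequenced paired ends on an Illumina HiSeq and quantified transcripts with Salmon (0.9.1 in the submitters' processing notes, which also name DESeq2 2.11.40.6) against Gencode vM17. The deposited estimated counts per transcript are raw, and 46.8% of them are not exactly whole as written. TPM per transcript was also deposited, as Salmon derives it from the estimated counts and effective lengths. Here both were summed over the transcripts that carry a gene's symbol in field 6 of their name, and counts were rounded. Among 22380 genes, 14 symbols belonged to several gene identifiers, none of them a member.

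The test was edgeR 4.0.16 (quasi-likelihood, TMM, filterByExpr, Benjamini-Hochberg over all genes tested, threshold 0.1). KO against WT and KO against WT plus HET were fitted on their own libraries, and the other 2 comparisons on the 10 libraries together, with 1 coefficient for each genotype. Fold changes are of the first group over the second. DESeq2 1.42.0 and limma 3.58.1 in R 4.3.3 gave alternatives, and the main edgeR fit was tried on simulated data. Positions and heavy chain ends come from Gencode vM21, of the same build.

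Members and gene lists were chosen with earlier results of these data known. Named are all members, Zbtb38, the 3 most abundant genes and up to 5 with the smallest unadjusted p under 0.05 in KO against WT plus HET of each pathway list, the 8 genes most like the members, and the most abundant cell type markers and those at 0. A few items that these rules name are not reported here. Sort or library batches are not given in the sources used here, and p-values measure the spread between these libraries. In HET against WT this spread was estimated over all 10 libraries, so the KO libraries helped to set it. By edgeR 1 of 14354 genes passed the threshold in that fit. When only the WT and HET libraries were fitted, 523 of 13220 did.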

Additional observations from a re-analysis of the deposited data

Results flagged for a closer look

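A library far from the rest of its group was looked for in 52 sets of values, of the KO group and of WT and HET together, where chance alone gives about 1 in 20, or 2.6. In 2 sets a library stood out. For Prdm1, HET replicate 2 with 2.39 CPM lay below the other WT and HET libraries, and its gap to the nearest of them took 0.911 of their whole range of log2(CPM + 1). In the myeloid list, KO replicate 4 with 999 TPM lay above the other KO libraries, with a gap of 0.756 of the range of summed TPM. KO replicate 4 had Fkbp11 at 10.3 CPM and Sdc1 at 25.1 CPM, each the second highest of the KO group, and its part in these levels was not tested. KO replicate 6 did not stand out by this measure for any of the 10 plasma cell genes.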

How the results depend on the processing

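Limits first: with 2 WT and 2 HET libraries a single library moves most values, the low genes rest on few counts (Tnfrsf17 on between 0 and 235), and 771 of 813 values of single members under the alternatives kept direction and side of the threshold. Of the rest, 36 turned their sign and 6 passed the threshold, and the cause was not tested unless the alternative itself has fewer libraries. Leaving out immunoglobulin genes, other filters, length-scaled counts, a robust fit, DESeq2's size factors and a threshold of 0.05 turned no sign and moved no count of members past the threshold. A minimum of 10 counts in every library left out Tnfrsf17 and, where HET was used, Fkbp11. Members with an unadjusted p under 0.05, over all alternatives, were 0 to 4 (replicate block, 1090 of 14203 genes) in KO against WT. In KO against WT plus HET they were 0 to 3 (a term per genotype, 1005 of 14354). In KO against HET they were 1 (replicate block, 1396 of 14354 genes) to 6 (DESeq2, 1879 of 14354), and in HET against WT 1 (without HET replicate 2, 686 of 15205) to 6 (only the libraries of these genotypes, 2234 of 13220).

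In KO against WT, limma on log2(TPM + 1) gave log2 values of -0.069 for Prdm1, -0.077 for Xbp1, -0.238 for Sdc1, -0.058 for Jchain, -0.099 for Tnfrsf17 and -0.058 for Fkbp11. With a pseudocount of 0.1 they were -0.113, -0.078, -0.304, -0.058, -0.489 and -0.091. The median over all genes moved from 0.014 to -0.107 and -0.157 on these scales, and Prdm1, Xbp1, Jchain and Fkbp11 were above it on both. A term per genotype turned Creb3l2 in KO against WT plus HET to 0.157.

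The replicate block, used although only 2 numbers are shared, moved the median of the members to -0.651 in KO against WT, with -0.083 for Prdm1, -0.338 for Xbp1, -1.289 for Sdc1, -1.983 for Tnfrsf17 and -1.245 for Fkbp11. In KO against WT plus HET the blocked median was -0.362, with -0.155 for Xbp1, -0.525 for Sdc1, -1.072 for Tnfrsf17 and -0.371 for Fkbp11, and in KO against HET Irf4 was at -0.4, Fkbp11 at 2.251 and Sdc1 at 1.195 (unadjusted p = 0.0849 by edgeR). Only KO replicates 1 and 2 then count against WT and HET. Deviations of same-numbered libraries correlated between -0.012 and 0.117 over 11395 genes, and the samples share only a number.

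Members past the threshold, 0 in the main edgeR fit, were 2 in KO against HET and 1 in HET against WT with DESeq2. Other edgeR fits of HET against WT gave 1 with the replicate block (66 genes in all, Fkbp11 adjusted p = 0.0775 by edgeR). They gave 2 when only the libraries of these genotypes were fitted (523 genes in all, Creb3l2 and Fkbp11). Genes of all kinds past the threshold by DESeq2 were 5, 18, 458 and 125 in the 4 comparisons, where the main edgeR fit had 1 in each.

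With each library left out in turn, values for KO against WT ran from -0.047 to 0.241 for Xbp1, from -0.235 to 0.206 for Sdc1, from -0.494 to 1.217 for Tnfrsf17, from -0.24 to 0.033 for Ell2, from -1.469 to -0.545 for Creb3l2 and from -0.1 to 0.705 for Fkbp11. The sign turned for Xbp1, Sdc1, Tnfrsf17 and Fkbp11 without KO replicate 6, for Sdc1 also without KO replicate 4 (-0.155) or WT replicate 1 (-0.015), for Ell2 without WT replicate 1 and for Xbp1 without WT replicate 2. For KO against WT plus HET they ran from -0.307 to 0.024 for Irf4 (positive without KO replicate 1 or WT replicate 2) and from -0.663 to 0.435 for Creb3l2 (positive without WT replicate 1). In KO against HET the median of the members ran from 0.398 without HET replicate 2 to 1.338 without HET replicate 1, and Irf4 from -0.006 without KO replicate 4 to 0.338. In HET against WT the median of the members ran from -0.962 without HET replicate 1 to -0.413 without HET replicate 2, and Ell2 ran from -0.031 without WT replicate 2 to 0.243. Where 1 library of a genotype remained, it was assumed to vary like the other groups. The secreted share of KO exceeded that of WT plus HET by 4.72 to 12.9 percentage points over the libraries left out, and by 9.17 with TPM.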
